A study of Homo sapiens with 2 samples.

Results

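Glycolysis and the response to low oxygen are linked by the hypoxia-inducible factors (HIF), and 41 genes of both were followed in Seg-1 cells after knockdown of the antisense RNA FGF-AS. They are 15 glycolytic enzymes, 3 sugar and lactate transporters, 4 kinases that set the flux into and out of glycolysis, 6 HIF factors and regulators and 13 HIF targets outside glycolysis, out of 19775 genes named on the array. The members were chosen by symbol, through every probe set annotated to exactly 1 member symbol. Of the 41, 38 had such a probe set (91 probe sets in all), and 37 were measured, that is, their brightest probe set had a mean signal of at least 23.9, the median over all probe sets. LOX, a collagen cross-linking oxidase, read 9.8 and 4.2 and was not measured. SLC16A1, SLC16A3 and CA9 were not analysed here.

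Seg-1 is, per the labels' protocols, the lung line H460, although it was first taken for an esophageal adenocarcinoma. One culture was given FGF-AS siRNA, directed at the RNA transcribed opposite to the FGF2 gene, and 1 culture was given a negative control siRNA without homology to known genes. Both were reverse transfected with Lipofectamine RNAiMAX, grown in DMEM with fetal bovine serum and harvested after 72 hours, and each gave 1 Affymetrix Human Genome U133 Plus 2.0 array. The labels name no low-oxygen or low-glucose treatment, no untransfected culture and no siRNA concentration for either array. With 1 array a group, no difference could be set against replicates, and no test was run. A lower signal from a culture cannot tell fewer expressing cells from less RNA per cell.

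Glycolysis splits glucose into pyruvate in the cytosol, and lactate dehydrogenase turns pyruvate into lactate when it is not passed to the mitochondria. HIF is a pair of an alpha subunit, which prolyl hydroxylases mark for VHL-dependent destruction when oxygen is present, and the stable partner ARNT. The pair raises transcription of most glycolytic enzymes and of genes for blood vessel growth, matrix, acid balance and mitophagy, and many carcinomas run both programmes at high levels even in air.

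NUDT6, the gene that encodes FGF-AS, was at 27.7% of the control signal on its brighter probe set (376.9 to 104.5) and at 29.1% on the other. The epithelial keratin genes KRT8 (3475.7 and 3780.9, control first) and KRT18 (10152.5 and 9327.2) were bright on both arrays. EPCAM was dim (34 and 43.8), and CDH1 was under the minimum. Of 4 lung lineage markers, NKX2-1 was under the minimum, and SFTPB (110.8 and 98), NAPSA (31.9 and 44) and SFTPC (14.7 and 59.1) were dim. The summed brightest signals of the lung lineage, 4 fibroblast, 3 leukocyte and 3 endothelial markers were 182.3, 221.3, 72.3 and 50.7 on the control array and 212.9, 206.7, 88.5 and 70.5 on the FGF-AS siRNA array. Each gene is given by its brightest probe set unless another is named, and pairs of signals give control siRNA first. The log2 ratio compares the FGF-AS siRNA signal with the control signal after 6.1 was added to both. Fold sizes are taken from the log2 ratio and so include this offset, while percentages of control are of the signals without it. Ratios of probe sets of the same gene disagreed with an SD of 0.36 (the probe set SD) at mean signals of at least 145.2 and 0.58 below that. It holds no variation between cultures.

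Most of the 37 measured members differed little between the arrays, and the larger differences lay in a few genes with different roles. ENO2 was the only member past 2-fold (1 higher, none lower), beside 2.05% (higher) and 2.72% (lower) of the 12347 measured genes on the array. At 1.5-fold, 5 members were higher (ENO2, HIF1A, ADM, ALDOC and PDK3) against 7.95% of measured genes, and MXI1 was lower against 9.52%. The 6 members past 1.5-fold are 16.2% of those measured, near the 17.5% of all measured genes. The median log2 ratio was -0.03 over members and -0.02 over all measured genes, with 16 members above 0 and 21 below. At the stricter signal minimum of 145.2, which 33 members met, 4 were past 1.5-fold higher and 1 lower, beside 5.74% and 5.75% of genes.

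**Figure D1:**
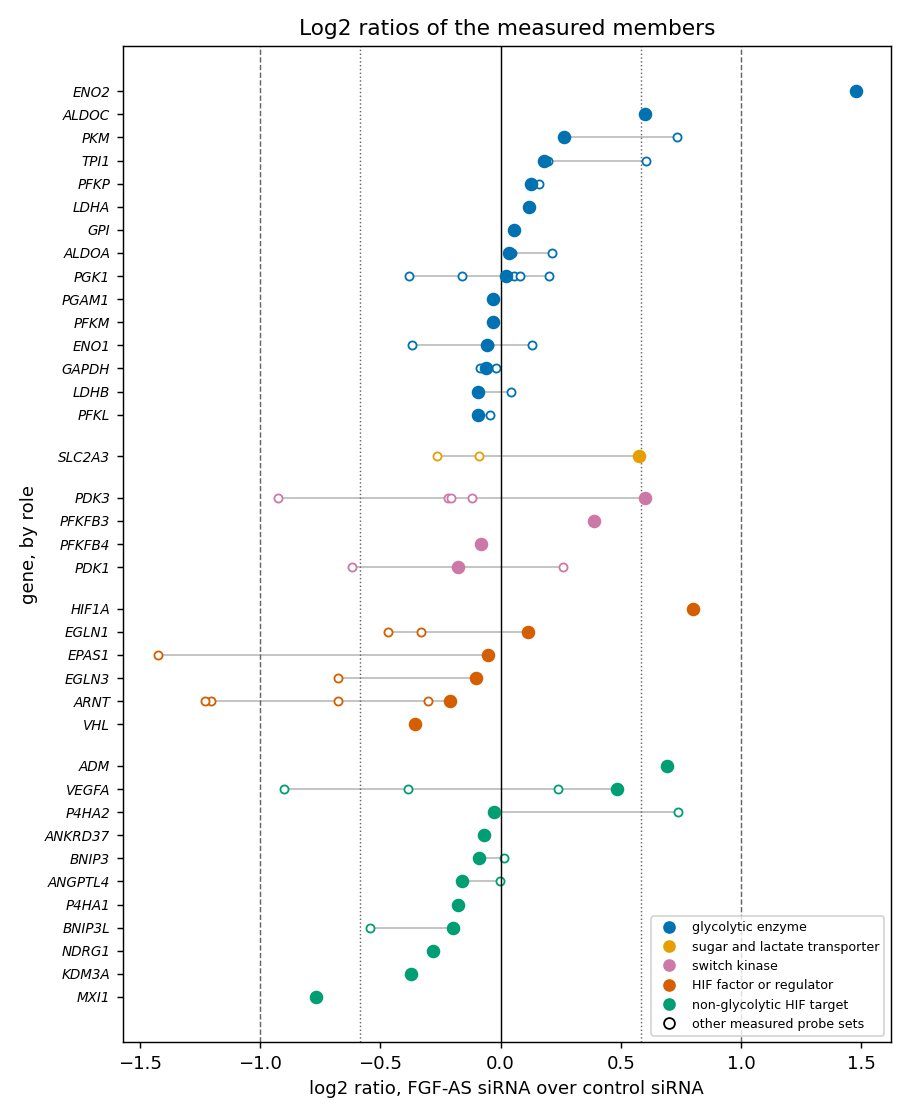
Log2 ratio of FGF-AS siRNA over control siRNA (1 array each) for the 37 measured members, by role. Filled points are the brightest probe set of a gene, open points its other measured probe sets, and dotted and dashed lines mark 1.5-fold and 2-fold. The enzymes cluster near 0 apart from ENO2 (1.48) and ALDOC (0.60), whereas probe sets of PDK3, VEGFA and SLC2A3 lie on both sides of 0.

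The glycolytic enzymes as a group were close to equal on both arrays. All 15 were measured, 9 were above 0 and 6 below, and their median log2 ratio was 0.04. Without ENO2 and ALDOC, a subset named after the values were seen, the other 13 ran from -0.10 to 0.27 with an SD across genes of 0.11. Of the 33 measured enzyme probe sets, 29 lay within 1.5-fold. By gene, 2 of 15 (13.3%) were past 1.5-fold, beside 17.5% of all measured genes. In the brightest of 10 equal signal bins, where most of the enzymes lie, 4.37% of all measured genes were past it.

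At the upper steps, GPI, which converts glucose phosphate to fructose phosphate, read 4311.1 and 4477.3, a log2 ratio of 0.05. The phosphofructokinase genes encode the committed step in liver, muscle and platelet forms. PFKL read 636.6 and 595.3 (-0.10), and PFKM read 1902.7 and 1859.4 (-0.03). PFKP read 3642.5 and 3980.3 (0.13). None of the 3 forms differed by more than the probe set SD. Aldolase, which splits the sugar, was different for its isozymes. ALDOA, the muscle and housekeeping form, read 10386.1 and 10648.7 (0.04), and its other probe sets gave 0.05 and 0.22. ALDOC, the form best known from brain, read 299.4 and 457.5 on its 1 probe set, 1.52-fold higher with a log2 ratio of 0.60. The 2 ratios differed by 0.57 on the log2 scale. The probe set SD of 0.36 is that of 1 ratio, and a difference of 2 ratios varies more than that.

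Below the split of the sugar, TPI1, triose phosphate isomerase, read 7468.9 and 8467.6 (0.18). Its second bright probe set gave 0.20, and a dim one (86.8 and 135.2) gave 0.61. GAPDH, the dehydrogenase of the following step and a common reference gene, read 15737.3 and 15104.8 (-0.06), with all 3 probe sets between -0.09 and -0.02. PGK1, which makes the first ATP of the pathway, read 12720.4 and 12934.2 (0.02), while its 5 other probe sets ran from -0.38 to 0.20. PGAM1, phosphoglycerate mutase, read 9344.7 and 9145.4 (-0.03). These 4 steps showed no difference beyond the probe set SD on their brightest probe sets.

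Enolase, which forms phosphoenolpyruvate, held the widest split between isozymes. ENO1, the alpha form of most tissues, read 14628.1 and 14083.4 (-0.05), with -0.37 on a second bright probe set (11043.2 and 8562.2) and 0.13 and -0.05 on the 2 dim ones. ENO2, the gamma form of neurons and neuroendocrine cells, read 62 on the control array and 183.5 on the other, a 2.78-fold higher signal (log2 ratio 1.48). It ranked 74th highest of 12347 measured genes (percentile 99.4). The ENO2 ratio exceeded that of ENO1 by 1.53. ENO2 has 1 probe set, its mean signal lay under the stricter minimum of 145.2, and the alternatives that kept it put its ratio between 1.20 and 1.60. PKM, pyruvate kinase, read 8138.9 and 9786 (0.27), and a dim probe set (60.1 and 104) gave 0.73. LDHA, which favours lactate formation, read 13265.2 and 14381.6 (0.12). LDHB, the form that favours pyruvate, read 13532.7 and 12691.2 (-0.09), and 0.04 on its other probe set.

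**Figure D2:**
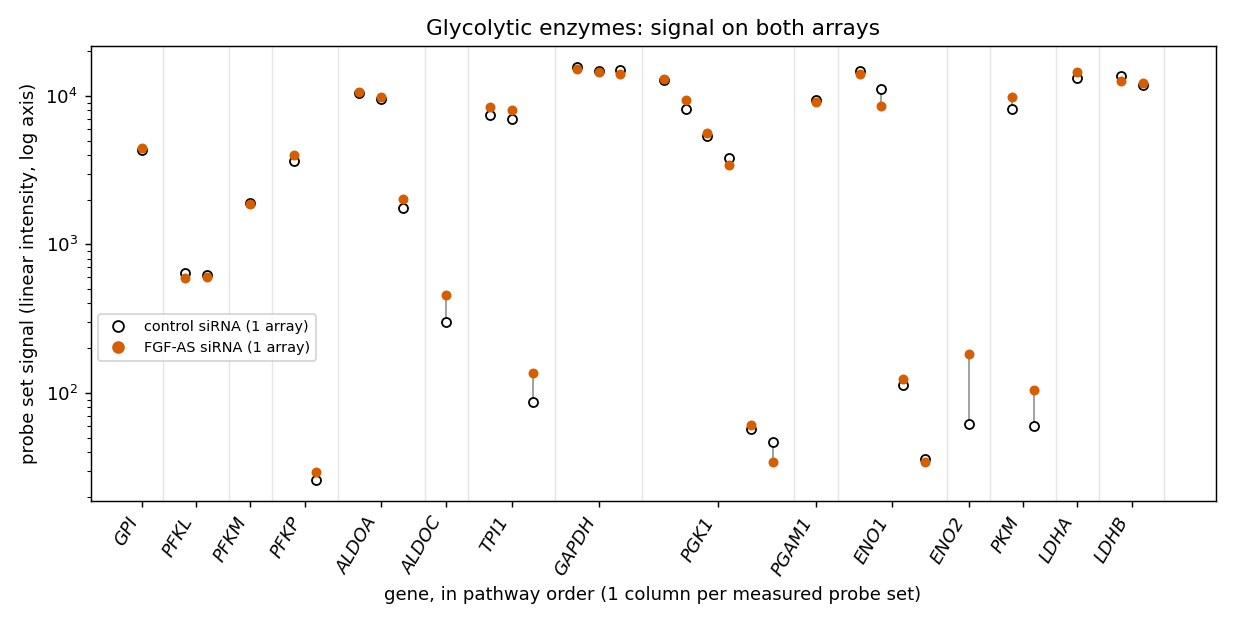
Signal (linear intensity on a log axis) of the 33 measured probe sets of the glycolytic enzymes, in pathway order, with control siRNA (open) and FGF-AS siRNA (filled), 1 array each. Most pairs overlap, and the 4 probe sets past 1.5-fold, those of ALDOC and ENO2 and a dim one each of TPI1 and PKM, were all higher with FGF-AS siRNA and had control signals from 60.1 to 299.4.

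The 4 enzyme probe sets past 1.5-fold were thus all dimmer than the main enzyme probe sets. Among all measured genes, the share past 1.5-fold was 19.0% in the bin of mean signals from 101.3 to 163.2, which holds ENO2, and 4.37% in the brightest of 10 equal bins, which holds 12 of the 15 enzymes. The brightest values of the arrays were 21359.6 and 20791.3, and GAPDH probe sets read from 14023.6 to 15737.3. Whether signals near the top of the range understate a change was not tested.

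Promoters of both enzyme pairs are shown because HIF binds a core of ACGTG or GCGTG, so that the isozymes with the larger ratios can be read beside their partners. The 250 bases before the start of each gene come from RefSeq (GRCh38.p14), at chr12:6914330-6914579 (ENO2, plus strand), chr1:8878687-8878936 (ENO1, minus strand), chr17:28576896-28577145 (ALDOC, minus strand) and chr16:30064029-30064278 (ALDOA, plus strand). Capitals mark ACGTG or GCGTG on either strand, and the complements read CACGT and CACGC.
ENO2: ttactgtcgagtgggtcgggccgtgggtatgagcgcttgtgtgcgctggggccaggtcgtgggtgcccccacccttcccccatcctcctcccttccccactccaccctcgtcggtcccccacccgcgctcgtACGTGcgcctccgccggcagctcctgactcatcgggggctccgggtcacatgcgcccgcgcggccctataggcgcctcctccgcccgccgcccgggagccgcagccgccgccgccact
ENO1: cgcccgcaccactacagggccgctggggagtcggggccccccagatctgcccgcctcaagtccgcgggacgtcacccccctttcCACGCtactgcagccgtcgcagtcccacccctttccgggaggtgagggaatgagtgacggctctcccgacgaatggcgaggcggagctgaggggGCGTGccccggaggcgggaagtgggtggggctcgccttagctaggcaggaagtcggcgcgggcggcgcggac
ALDOC: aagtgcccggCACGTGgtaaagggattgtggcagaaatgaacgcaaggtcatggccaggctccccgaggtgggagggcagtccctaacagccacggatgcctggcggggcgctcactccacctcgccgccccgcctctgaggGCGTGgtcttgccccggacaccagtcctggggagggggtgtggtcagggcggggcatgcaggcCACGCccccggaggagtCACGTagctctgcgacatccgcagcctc
ALDOA: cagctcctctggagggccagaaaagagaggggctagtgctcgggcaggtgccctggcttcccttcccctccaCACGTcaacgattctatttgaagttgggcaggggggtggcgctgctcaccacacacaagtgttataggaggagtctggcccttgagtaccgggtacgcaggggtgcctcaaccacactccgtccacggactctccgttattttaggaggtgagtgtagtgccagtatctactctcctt

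ENO2 held 1 ACGTG, 118 bases before the start, and ALDOA held 1, at 178 bases. ALDOC held 5 matches by strand, the 2 farthest of them the strands of 1 CACGTG, which is also the E-box letters, and ENO1 held 2 of GCGTG only. Of the 35 members with a promoter in the table, 23 (65.7%) held either motif, against 50.5% of 15843 protein-coding promoters of the same length. ACGTG was in 15 of them (42.9%, against 20.8%) and GCGTG in 12 (34.3%, against 39.2%). The members include genes listed because they are known HIF targets, so these shares are a description of the choice of members. Among 32 measured members with a promoter, the median log2 ratio was 0.02 for the 21 with a motif and -0.03 for the 11 without. LDHA held 5 ACGTG matches and BNIP3 6 matches of either motif, at log2 ratios of 0.12 and -0.09. A match is a stretch of letters and not a measured binding site. Only 1 start per gene was searched, so any other start of a gene is not covered.

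Of the transporters, SLC2A3, a high-affinity glucose carrier, was the 1 measured. It read 418.9 and 626.6 on its brightest probe set (0.57) but 566.6 and 471 (-0.26) and 321.1 and 301.4 (-0.09) on the others, so its direction depends on the probe set. The bifunctional enzymes PFKFB3 and PFKFB4 make the activator of phosphofructokinase. PFKFB3 read 151.7 and 200.4 (0.39), about the size of the probe set SD, and PFKFB4 read 292.7 and 276.3 (-0.08). PDK1 and PDK3 switch off pyruvate dehydrogenase and so keep pyruvate out of the mitochondria. PDK1 read 964.8 and 851.8 (-0.18), with -0.62 and 0.26 on its other probe sets. PDK3 read 190.7 and 292.2 (0.60) on the brightest of its probe sets, while the 4 others ran from -0.93 to -0.12. The mean over its probe sets was -0.17, so the count of PDK3 among the members past 1.5-fold rests on 1 of 5 probe sets. Neither kinase gene had a direction common to its probe sets.

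The HIF alpha subunit gene HIF1A was higher with FGF-AS siRNA, while the brightest probe sets of the 5 other members of this group ran from -0.36 to 0.11. HIF1A read 2497.4 and 4351.4 on its 1 probe set, a 1.74-fold higher signal (log2 ratio 0.80). This is over 2 probe set SDs, and it ranked 478th highest of the measured genes (percentile 96.1). In the brightest signal bin, to which HIF1A belongs, the middle 95% of ratios ran from -0.47 to 0.64. EPAS1, which encodes the second alpha subunit, read 1629.7 and 1572.2 (-0.05), and a much dimmer probe set (114.3 and 38.7) gave -1.43. The HIF1A ratio exceeded that of EPAS1 by 0.85 on the brightest probe sets.

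ARNT, the common beta subunit, was lower on all 5 of its measured probe sets. They read 135.4 and 116.1, 151.2 and 62.1, 118.7 and 72, 93.4 and 74.5, and 91.6 and 35.5, with log2 ratios from -1.23 to -0.21. Of the 454 genes with 5 or more measured probe sets, 21.6% were lower on every one. VHL, the substrate receptor of the ubiquitin ligase that destroys HIF alpha, read 102.3 and 78.5 (-0.36), within the SD of 0.58 for dim probe sets. EGLN1, the main oxygen-sensing prolyl hydroxylase, read 1080.9 and 1168.9 (0.11) but -0.33 and -0.47 on its 2 other measured probe sets. EGLN3, a hydroxylase that HIF itself induces, read 218 and 202.5 (-0.10), and -0.67 on the other. Over the 6 genes the median was -0.08, and 12 of their 14 measured probe sets were below 0, beside 56.7% of the 23206 measured probe sets with 1 symbol. ARNT alone gives 5 of the 12. The 2 above 0 were those of HIF1A and the brightest of EGLN1.

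Promoters of HIF1A (chr14:61695263-61695512), ADM (chr11:10304823-10305072) and MXI1 (chr10:110207355-110207604), all on the plus strand (RefSeq, GRCh38.p14), are given because these 3 members passed 1.5-fold under all alternatives tried. Each has 1 probe set, so only the alternatives of offset and scaling could change its ratio. Capitals mark GCGTG, which HIF1A and ADM held once, 204 and 101 bases before the start. MXI1 held neither motif before the 1 start searched.
HIF1A: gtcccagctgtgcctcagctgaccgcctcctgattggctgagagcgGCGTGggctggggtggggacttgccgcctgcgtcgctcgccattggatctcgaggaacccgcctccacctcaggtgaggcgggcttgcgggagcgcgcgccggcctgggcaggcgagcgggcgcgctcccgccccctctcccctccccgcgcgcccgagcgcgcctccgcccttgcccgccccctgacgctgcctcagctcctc
ADM: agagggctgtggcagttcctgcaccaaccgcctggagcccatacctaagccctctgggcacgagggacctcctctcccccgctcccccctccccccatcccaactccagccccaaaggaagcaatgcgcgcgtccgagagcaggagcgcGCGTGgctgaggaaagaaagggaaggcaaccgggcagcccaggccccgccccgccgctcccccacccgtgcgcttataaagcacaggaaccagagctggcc
MXI1: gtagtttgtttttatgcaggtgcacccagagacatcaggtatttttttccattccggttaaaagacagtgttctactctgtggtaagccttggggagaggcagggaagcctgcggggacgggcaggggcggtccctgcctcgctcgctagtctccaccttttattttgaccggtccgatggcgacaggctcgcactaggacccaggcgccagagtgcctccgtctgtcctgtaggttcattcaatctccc

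HIF targets outside glycolysis were slightly lower more often than higher. Of 11 measured, 9 were below 0 and 2 above (18.2% above, against 48.1% of all measured genes), with a median log2 ratio of -0.16 and an SD across genes of 0.39. By probe sets, 13 of 18 were below 0, beside 56.7% of the 23206 measured probe sets with 1 symbol. The 2 members above 0 encode secreted vascular factors. ADM, the vasodilator peptide adrenomedullin, read 523.6 and 850 on its 1 probe set, 1.62-fold higher with a log2 ratio of 0.69. VEGFA, the main growth factor of blood vessels, read 480.5 and 674.9 (0.48) and 294.4 and 348.3 (0.24) on its 2 brighter probe sets. The 2 dimmer ones read 199.8 and 151.5 (-0.39) and 179.5 and 93.2 (-0.90). The VEGFA probe sets thus do not give 1 direction, and their mean was -0.14.

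MXI1, a repressor that competes with MYC for its partner MAX, was the lowest member. It read 1285.6 and 753, 58.6% of control with a log2 ratio of -0.77, on its 1 probe set. It ranked 656th lowest of the measured genes (percentile 5.31). KDM3A, a histone demethylase, read 551.4 and 423.9 (-0.37). NDRG1, a stress-responsive growth suppressor gene, read 334.2 and 273.8 (-0.28). Both ratios were near or under the probe set SD.

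The mitophagy receptor genes were level or lower. BNIP3 read 4887.8 and 4591.3 (-0.09), with 0.02 on its other probe set. BNIP3L read 1325.7 and 1155 (-0.20) and 1117.6 and 764.7 (-0.54), and both of its probe sets were lower. The collagen prolyl hydroxylase genes P4HA1 (1312 and 1158.8, -0.18) and P4HA2 (549.9 and 539.1, -0.03) were close to equal on their brightest probe sets. So were ANKRD37, an ankyrin repeat gene (207.2 and 197.2, -0.07), and ANGPTL4, an inhibitor of lipoprotein lipase (138 and 123, -0.16). Of the genes counted below 0, ANKRD37 and P4HA2 turned above 0 under quantile normalization and loess. P4HA2 also did so under median centring (0.03) and with the mean over probe sets (0.36). Its dim measured probe set (28.5 and 51.7) gave 0.74.

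**Figure D3:**
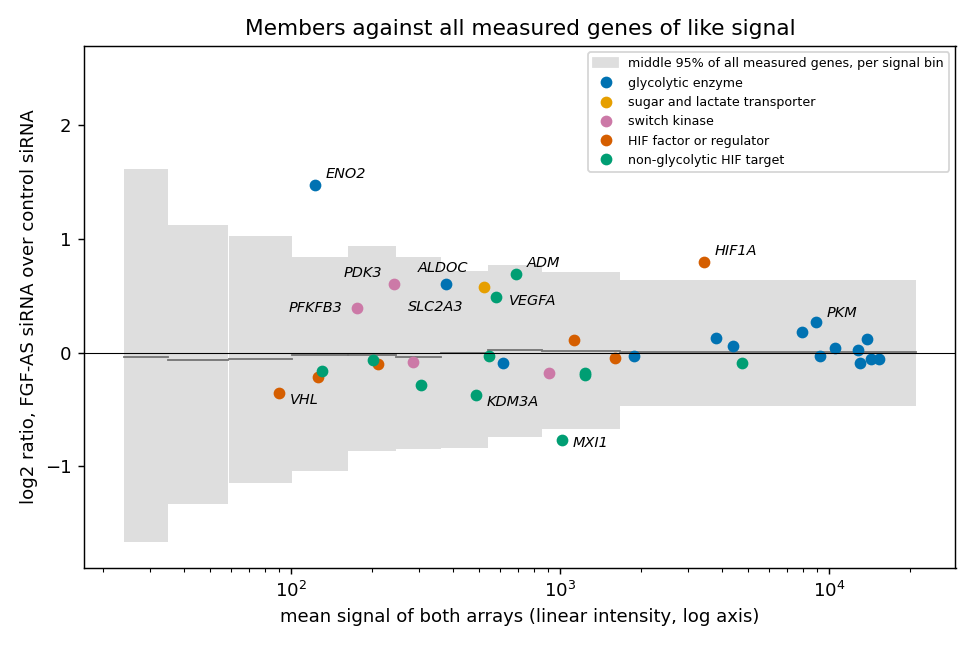
Log2 ratio (FGF-AS siRNA over control siRNA, 1 array each) against the mean signal of both arrays for the measured members, over grey boxes that hold the middle 95% of all measured genes in each of 10 equal signal bins and grey lines at their medians. ENO2 (1.48) and HIF1A (0.80) lie above their boxes, MXI1 (-0.77) below, and the other members lie inside.

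Against genes of like signal, 3 of the 37 measured members lay outside the middle 95%, which by construction leaves 5% of genes outside. ENO2 stood at 1.48 where the range of its bin ran from -1.04 to 0.84. MXI1 stood at -0.77 where it ran from -0.67 to 0.71. ADM (-0.75 to 0.77), ALDOC (-0.84 to 0.71) and PDK3 (-0.86 to 0.94) lay inside theirs. All 3 outside had 1 probe set, so none had a second reading on these arrays.

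Agreement between probe sets was that of the array as a whole. Of the 21 members with 2 or more measured probe sets, 7 were lower on all (PFKL, GAPDH, EPAS1, ARNT, EGLN3, BNIP3L and ANGPTL4), where 31.4% of such genes were lower on all. Another 4 were higher on all (PFKP, ALDOA, TPI1 and PKM), where 17.8% were. The remaining 10 had probe sets on both sides of 0. Of the 4 higher on all, the brightest probe sets ran only from 0.04 to 0.27.

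Other genes of the pathways, from lists drawn up by role, were past 2-fold about as often as genes in general. Of 77 listed, 61 were measured, 1 was past 2-fold higher and 1 past 2-fold lower, beside 2.05% and 2.72% of all measured genes. The higher one was BHLHE40, a transcriptional repressor and HIF target (463.6 and 1006.7, 1.11), with 0.38 on its other probe set. The 22 measured HIF targets of that list had a median of -0.05. DDIT4, an mTOR inhibitor, read 5094.6 and 5903.7 (0.21), and SLC2A1 and HK2, the common glucose carrier and the inducible hexokinase, stood at 0.08 and 0.29. Among 11 further HIF factors and regulators the median was 0.18, 7 were above 0 and none passed 1.5-fold. HIF1AN, the asparagine hydroxylase that blocks HIF activity, was furthest from 0 and lower on all 3 probe sets (279.4 and 189 on the brightest, -0.55). CITED2, which competes with HIF for the coactivator p300, was of like size the other way, at 0.54 (461.1 and 673.4) and 0.30 on its 2 measured probe sets. EP300, which encodes that coactivator, stood at 0.37 on both of its probe sets. CREBBP, of the same list, went the other way on its brightest probe set (425 and 331.5, -0.35), with 0.18 on a dim one.

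Of 16 measured genes for the fate of pyruvate and lactate, 4 were above 0 and 12 below, with a median of -0.19, beside 48.1% above 0 and a median of -0.02 over all measured genes. SLC16A7, a monocarboxylate carrier with high affinity for pyruvate, read 872.2 and 426.4, 2.03-fold lower with a log2 ratio of -1.02, and its 4 other probe sets ran from -0.90 to 0.08. PC, pyruvate carboxylase (273.9 and 163.7, -0.72), and MPC1, a subunit of the mitochondrial pyruvate carrier (732.3 and 462.1, -0.66), were also past 1.5-fold lower, which makes 3 of 16, beside 9.52% of all measured genes. Over the 61 measured genes of all these lists, 4 were past 1.5-fold lower. There, 1 was past 1.5-fold higher, beside 7.95% of all measured genes. The pyruvate dehydrogenase subunit genes PDHA1 (0.09) and PDHB (0.07) were close to 0. The 8 measured genes of the pentose phosphate branch had a median of -0.14, with TIGAR, a p53-regulated brake on glycolysis, furthest from 0 (1163.5 and 825.4, -0.49). The 4 measured tissue-restricted isozymes had a median of -0.11, with ENO3, muscle enolase, furthest from 0 at -0.51 (87.3 and 59.5).

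**Figure D4:**
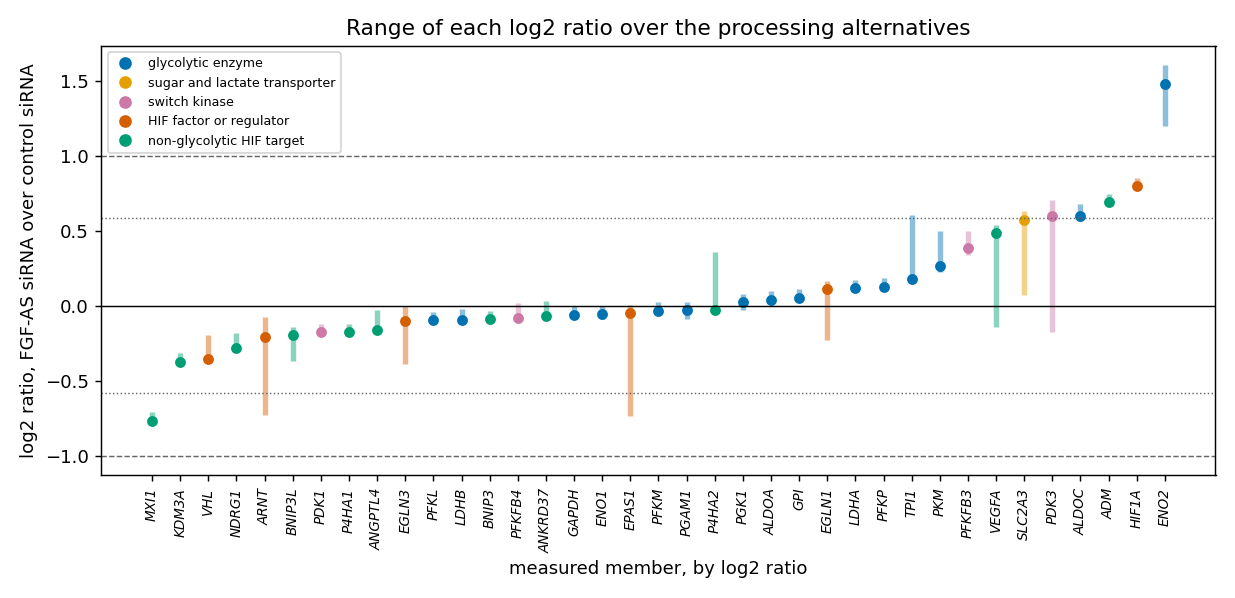
Log2 ratio of each measured member (point) with its lowest and highest value over the processing alternatives (bar), FGF-AS siRNA over control siRNA, 1 array each. ENO2, HIF1A, ADM and MXI1, with 1 probe set each, stay past the dotted 1.5-fold line throughout, while the bars of PDK3, VEGFA and EPAS1 cross 0. For genes with 1 probe set the bar holds only the changes of offset and scaling.

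Over the alternatives, HIF1A ran from 0.79 to 0.86, ADM from 0.67 to 0.75 and MXI1 from -0.77 to -0.71. With ENO2 these were the 4 members past 1.5-fold under each setting that gave them a value. Each of them has 1 probe set, so only the changes of offset and scaling could alter its ratio. ALDOC ran from 0.56 to 0.68 and lost the 1.5-fold size with an offset of 32.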

How the data were processed

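RNA of 2 Seg-1 cultures was measured on 1 array each. Per the labels' protocols, total RNA was primed with oligo-dT and made into biotin-labelled cRNA. The authors deposited 1 intensity per probe set and array, on a linear scale. GCOS and MAS5 are named in the submitters' processing notes. The scaling between arrays, the centring and the detection calls are not given in the sources used here. Medians over non-control probe sets were 25.5 (control siRNA) and 23.1 (FGF-AS siRNA). A signal carries no counting error, and the number of arrays limits the precision.

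Of 54675 probe sets, 62 controls were left out, 41091 had 1 gene symbol, 1801 several and 11721 none here. Symbols were updated by gene identifier through RefSeq (GRCh38.p14). Log2 ratios used an offset of 6.1 (25th percentile of signals), which understates ratios of dim genes. A gene was measured at a mean of at least 23.9 (50th percentile). No test was possible. All members are named, with both signals for those past 1.5-fold and for each step. Of the pathway lists, genes past 2-fold and the one furthest from 0 in each list are named. DDIT4, SLC2A1, HK2, CITED2, EP300, CREBBP, PC, MPC1, PDHA1, PDHB, TFRC, WSB1, RORA, CA12 and FAM162A were added after their values were seen. The members and lists were chosen with earlier results of these data known. The calculation was tested on simulated data, with planted changes larger than the ratio of any member and calls at 2-fold. Changes of the sizes reported here, and calls at 1.5-fold, were not tested that way. Alternatives changed the offset, minimum, scaling and probe set choice (Python 3.11.15, pandas 2.3.3, statsmodels 0.14.6 for loess).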

Additional observations from a re-analysis of the deposited data

How the results depend on the processing

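With 9 alternatives tried, 26 of 37 measured members kept the sign of their log2 ratio and 11 turned it under at least 1. No paired analysis was possible because each group holds 1 array. At the stricter minimum of 145.2, 0 members were past 2-fold higher, since ENO2 is left out there. With an offset of 32, 3 members (ADM, ENO2 and HIF1A) were past 1.5-fold higher, beside 5.08% of all measured genes. Without a minimum, 2 of 38 members were past 1.5-fold lower (MXI1 and LOX), beside 14.6% of all genes. With the mean over probe sets, 3 of 37 were (MXI1, ARNT and EPAS1), beside 11.1% of all measured genes. That mean moved the median of the HIF factors and regulators to -0.37 and that of the transporters and switch kinases from 0.39 to -0.081. When probe sets whose names end in _s_at or _x_at were left out, the median of the enzymes was 0.27 over 7 genes, and that of the transporters and switch kinases was again -0.081. The median of the HIF targets stayed below 0, at -0.17 to -0.08. The median of the HIF factors turned to 0.03 at the stricter minimum and without those probe sets, and both leave 4 genes. Over all measured genes, the share at least 2-fold that was higher depended on scaling: 253 were higher and 336 lower, but 303 and 284 under median centring, 349 and 228 under quantile normalization and 331 and 245 under loess. Many of the 312 single-member values under alternatives equal the reported ratio by construction. A changed minimum keeps the probe set and offset, and the mean changes nothing for a member with 1 measured probe set. Of the 312 values, 306 lay within 1 probe set SD of the reported ratio, a share that these fixed values raise. The other 6 were TPI1 (0.61) without those probe sets, and SLC2A3 (0.07), PDK3 (-0.17), EPAS1 (-0.74), VEGFA (-0.14) and P4HA2 (0.36) with the mean over probe sets. The cause of these moves was not tested, apart from the genes or probe sets that an alternative leaves out. Low signal limits ENO2, ARNT and VHL.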

Other observations

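Probe sets of 1 gene could differ by more than any gene difference given above. TFRC, the transferrin receptor gene and a HIF target of the pathway lists, read 7873.1 and 8210.2 on its brightest probe set (log2 ratio 0.06) and 5592.4 and 6200 on the next (0.15). A dimmer one read 1891.2 and 292.2 (-2.67). WSB1, a HIF-induced ubiquitin ligase gene, had a narrower spread. It read 867.1 and 674.7 on its brightest probe set (-0.36), with -1.73 and -1.22 on 2 dimmer ones. RORA, a nuclear receptor gene, was below 0 on all of its measured probe sets, with 346.5 and 213.8 on the brightest (-0.68). Of all genes with 5 or more measured probe sets, 21.6% were lower on every one. CA12, a carbonic anhydrase gene, was above 0 on all of its measured probe sets (286.2 and 394.7 on the brightest, 0.46). Of all genes with 2 or more measured probe sets, 17.8% were higher on every one. That class also holds genes with fewer measured probe sets than CA12, and the share for genes with 5 or more is not given here.

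Of the members, EPAS1 was also lower on its dim probe set (-1.43) than on its bright one (-0.05), a range of 1.37. The measured probe sets of PDK3 and VEGFA had wider ranges, of 1.53 and 1.39. FAM162A, a mitochondrial HIF target, had 3 bright probe sets between 0.24 and 0.31. Its dim measured ones gave 0.06 (33.4 and 35.2) and -0.60 (38.7 and 23.4).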
